A study of Mus musculus with 2 samples.

Results

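The 10 genes described here encode 7 matrix metalloproteinases (Mmp2, Mmp3, Mmp9, Mmp11, Mmp12, Mmp13 and Mmp14) and 3 tissue inhibitors of metalloproteinases (Timp1, Timp2 and Timp3). They were taken by symbol from the 31054 gene rows that both count tables list, and all 10 had UMIs in both libraries. A UMI marks a single captured RNA molecule. The totals over kept cells lay between 48 UMIs for Mmp9 and 8678 for Timp2 in the Met-1 library, and between 7 for Mmp11 and 1156 for Timp2 in the PyMT library.

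Single-cell RNA was counted in 2 libraries, 1 for each of 2 breast tumour models. The Met-1 library came from a tissue labelled as a Met-1 xenograft tumour, and the PyMT library from a PyMT breast tumour. The design text speaks of EO771 implants instead; the sample label is followed here. Both groups shared the C57BL/6 strain and the inAd-Chaser-mTmG genotype (Adiponectin-rtTA; TRE-Cre; Rosa26RmT/mG), a doxycycline pulse, a tumour fibroblast isolation and a sort for cells with EGFP and without tdTomato. In these mice the adipocyte gene promoter of Adiponectin controls the switch to EGFP. Neither the age nor the number of the mice is in the sources used here. EGFP UMIs were not limited to stromal cells: they were present in 751 of 771 macrophage-like cells of the Met-1 library and 159 of 183 of the PyMT library, as against 244 of 255 and 8 of 11 fibroblast-like cells.

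After filtering, 2112 of 2451 Met-1 barcodes (86.2%) and 589 of 619 PyMT barcodes (95.2%) were kept. The median cell held 7684 and 3470 UMIs. Their totals were 19768692 and 4293854 UMIs, and the libraries shared 0 barcodes. Cell classes were set from UMIs of fixed marker genes, none of them a protease or inhibitor described here. They held 255 and 11 fibroblast-like cells, 98 and 0 mural-like cells (cells of the vessel wall such as pericytes), 771 and 183 macrophage-like, 36 and 184 neutrophil-like, and 37 and 86 luminal-like cells, in Met-1 and PyMT, while 131 cells carried markers of more than 1 class and entered none. The fibroblast-like cells of the Met-1 library were divided by state markers into 150 myofibroblastic cells (a list led by Cilp, Thbs4 and Tnc), 12 Gdf10 cells and 55 progenitor-like cells (a list led by Pi16, Dpp4 and Clec3b), with 38 between states. Single markers crossed these lines: Cthrc1 of the myofibroblastic list was at 197 CPM in myofibroblastic and 412 CPM in progenitor-like cells, and C3 of the progenitor list at 3583 CPM in Gdf10 and 2247 CPM in progenitor-like cells, with Clec3b at 2525 and 3063 CPM in the same states, where CPM is UMIs per 1000000 UMIs of the cells named. The 11 PyMT cells held 8 progenitor-like cells, 2 between states and 0 that the lists set as myofibroblastic. The remaining cell was set to the Gdf10 state with 0 UMIs of Gdf10 itself and with the myofibroblastic marker Cilp at 3552 CPM. With 1 library per group there was no replicate and no test, and all intervals are 95% intervals that cover counting error only.

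Matrix metalloproteinases are zinc enzymes that cut collagens, laminins, elastin and many signalling proteins of the extracellular matrix, and most are secreted as inactive precursors. The inhibitors bind the active enzymes and hold their activity down. In breast tumours much of this activity is known to come from the stroma and from infiltrating leukocytes, and Mmp14, which is anchored in the cell membrane, activates the precursor of Mmp2 together with Timp2.

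The genes for Mmp13 (chr9:7272514-7283333), Mmp12 (chr9:7344397-7360461) and Mmp3 (chr9:7445822-7455975) are near neighbours on chromosome 9 of the mouse build GRCm38.p6, which is the assembly of mm10. The others are Mmp2 (chr8:92827290-92853421), Mmp9 (chr2:164940326-164955850), Mmp11 (chr10:75923221-75932502), Mmp14 (chr14:54431598-54442456), Timp1 (chrX:20870166-20874737), Timp2 (chr11:118301061-118355411) and Timp3 (chr10:86300412-86349505). Upstream sequence was taken from the RefSeq promoter table of GRCm38.p6, in which 8 of the 10 genes had an entry, in 9 windows of 250 bases before a start. The windows of the 3 neighbours are printed because, of the 8 genes, these were the ones with a match to the motif below. Capitals mark the AP-1 motif TGACTCA, which is TGAGTCA on the other strand. All 4 windows lie on the plus strand, and Mmp12 has 2 annotated starts.
Mmp13, chr9:7272264-7272513: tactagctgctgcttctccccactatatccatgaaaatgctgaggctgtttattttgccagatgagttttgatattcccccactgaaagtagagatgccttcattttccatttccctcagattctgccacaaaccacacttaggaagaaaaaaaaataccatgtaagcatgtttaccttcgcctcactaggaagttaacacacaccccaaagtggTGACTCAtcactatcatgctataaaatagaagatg
Mmp3, chr9:7445572-7445821: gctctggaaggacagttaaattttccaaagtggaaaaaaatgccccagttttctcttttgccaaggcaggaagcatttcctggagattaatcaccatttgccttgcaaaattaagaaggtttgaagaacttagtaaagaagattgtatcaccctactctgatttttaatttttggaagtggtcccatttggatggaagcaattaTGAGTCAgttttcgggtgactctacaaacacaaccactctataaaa
Mmp12, chr9:7347124-7347373: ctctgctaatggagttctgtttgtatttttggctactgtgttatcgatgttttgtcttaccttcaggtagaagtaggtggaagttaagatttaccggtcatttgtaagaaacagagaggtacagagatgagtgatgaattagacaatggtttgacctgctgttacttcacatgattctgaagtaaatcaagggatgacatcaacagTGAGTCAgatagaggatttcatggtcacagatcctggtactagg
Mmp12, chr9:7344147-7344396: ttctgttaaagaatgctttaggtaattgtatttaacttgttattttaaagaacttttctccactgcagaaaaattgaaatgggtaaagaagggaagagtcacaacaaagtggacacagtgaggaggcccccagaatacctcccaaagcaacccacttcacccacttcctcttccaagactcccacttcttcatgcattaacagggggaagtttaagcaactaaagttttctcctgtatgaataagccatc

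The AP-1 letters were present in a window of 3 of the 8 genes, and their first base stood 35 bases before the start of Mmp13, 46 before that of Mmp3 and 44 before that of Mmp12 in the window at 7347124. Of all 32851 promoter windows of the same length in the table, 1466 (4.46%) held this motif on either strand. The letters TATAAA, searched on both strands (TTTATA), were present in 2 of the 8 genes, Mmp3 and Mmp13, and in 4063 of all windows (12.4%). The 2 motifs do not overlap in these windows. A match is a description of the letters and not evidence of a bound factor.

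Among the classes of the Met-1 library with at least 20 cells, 8 of the 10 genes had their highest level in fibroblast-like or mural-like cells. Mmp12 had it in macrophage-like cells and Mmp9 in neutrophil-like cells. Levels are the UMIs of a gene summed over a class, in CPM of that class. A free-RNA measure stands beside them: Col1a1, a collagen gene of fibroblasts, was at 12104 CPM in fibroblast-like cells and at 22.5 CPM in T-like cells, 0.19% of that level, and at 26.7 CPM in macrophage-like cells, 0.22%. In T-like cells of the Met-1 library, taken as cells that should lack these genes, 9 of the 10 were present in at most 8 of 317 cells. Timp2 was present in 110 of them. The median depth was 15590 UMIs in fibroblast-like and 7915 in T-like cells of that library, and 11649 and 3750 in those of PyMT.

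**Figure D1:**
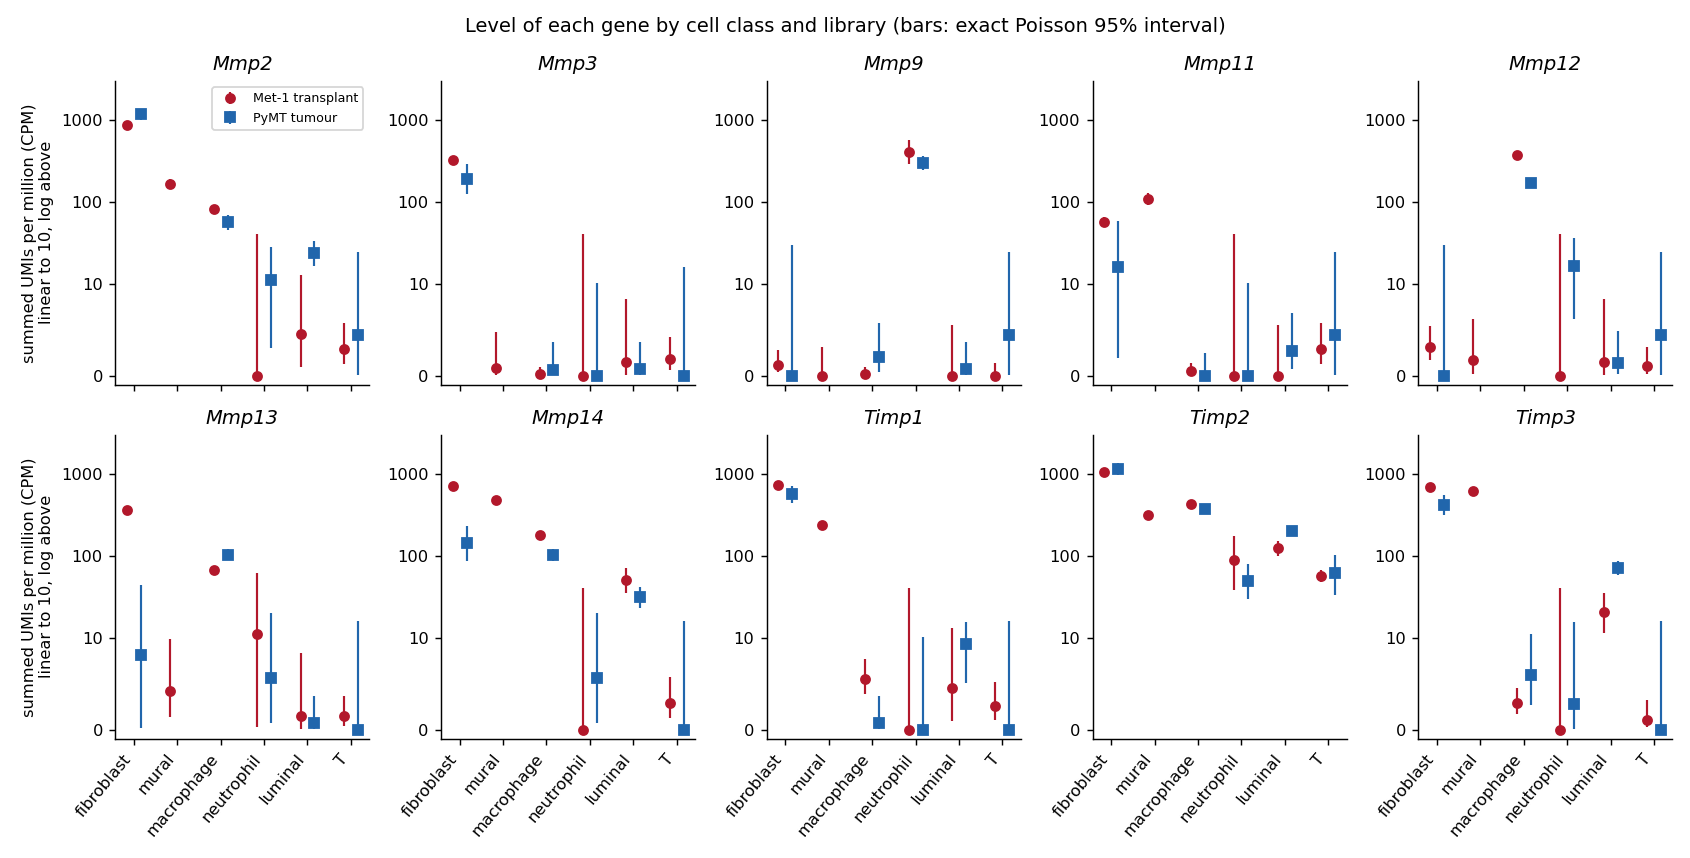
Summed level of each of the 10 genes in 6 cell classes of the Met-1 and PyMT libraries, in CPM (y axis, linear to 10 and log above), with classes on the x axis, circles for Met-1, squares for PyMT and 95% counting intervals as bars. Mmp9 stands out in neutrophil-like cells, Mmp12 in macrophage-like cells, and most others in fibroblast-like and mural-like cells, with the 11 PyMT fibroblast-like cells resting on few UMIs.

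Mmp2, a gelatinase that cuts denatured collagen and type IV collagen, had its highest level in fibroblast-like cells in both tumours. It was at 870.2 CPM (842 to 899) in fibroblast-like cells of Met-1 and 1177 CPM (993 to 1385) in those of PyMT, with a UMI in 231 of 255 and 11 of 11 cells. These cells held 77.7% (76.5 to 78.9) of the Met-1 and 50.2% (44.3 to 56.1) of the PyMT Mmp2 UMIs. Mural-like cells of the Met-1 library, at 169 CPM, were 5.16-fold lower (4.47 to 5.99) than fibroblast-like cells. Macrophage-like cells were at 82.3 and 57.1 CPM, with Mmp2 in 272 of 771 and 49 of 183 cells. T-like cells had Mmp2 in 8 of 317 and 1 of 44 cells, so the macrophage share lay above theirs in both libraries. In PyMT luminal-like cells Mmp2 was present in 18 of 86 cells (24.1 CPM), and in Met-1 luminal-like cells it had 3 UMIs.

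Mmp14, the membrane-anchored protease that activates Mmp2, followed the same stromal order with a larger part in mural-like cells. It reached 714 CPM (688 to 740.1) in fibroblast-like cells of Met-1, where 229 of 255 cells had a UMI, and 146 CPM (86.6 to 231) in those of PyMT, where 7 of 11 did. Mural-like cells were at 483 CPM (444 to 524), with a UMI in 93 of 98 cells. This was within 2-fold of the fibroblast level. Macrophage-like cells were at 179 and 104 CPM, with a UMI in 490 of 771 and 73 of 183 cells, and luminal-like cells at 51.1 and 31.4 CPM. The free-RNA measure lay far below this: in Met-1 macrophage-like cells Mmp14 stood at 25.1% of its fibroblast level and Col1a1 at 0.22%.

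Mmp3, a stromelysin that cuts proteoglycans and activates other precursors, was nearly absent outside fibroblast-like cells. They held 1368 of its 1389 UMIs in the Met-1 library (98.5%, 97.7 to 99.1) and 24 of 27 in the PyMT library. The level was 332 CPM (314 to 349.7) in Met-1, against 195 CPM (125 to 289.9) in PyMT. A UMI was present in 87 of 255 and 4 of 11 cells, against 5 of 317 and 0 of 44 T-like cells. Mural-like cells held 1 Mmp3 UMI in 98 cells, a ratio of 0.00257 (6.49e-05 to 0.0143) to fibroblast-like cells.

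Mmp11, a stromelysin that cuts inhibitors of serine proteases, was the only one of the 10 led by mural-like cells in the Met-1 library, among classes with at least 20 cells. It was at 111 CPM (92.4 to 131) in mural-like cells, with a UMI in 42 of 98, and at 57.9 CPM (50.8 to 65.8) in fibroblast-like cells, with a UMI in 92 of 255. The ratio of 1.91 (1.53 to 2.37) stayed under the 2-fold used here. T-like cells had it in 8 of 317 cells, and the PyMT library held 7 UMIs in all, 2 of them in fibroblast-like cells. The 2 Met-1 cells set as adipocyte-like, too few to be ranked, held 11 Mmp11 UMIs (825 CPM, 412 to 1476), 9 of them in 1 cell.

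Mmp13, a collagenase of interstitial collagens, had 2 sources. In the Met-1 library, fibroblast-like cells held 72.8% (70.8 to 74.7) of its UMIs and macrophage-like cells 20.7% (19.0 to 22.5). In the PyMT library, macrophage-like cells held 85.4% (79.5 to 90.2) and the fibroblast-like cells 1 UMI. A UMI was present in 46 of 255 Met-1 fibroblast-like cells (366 CPM, 348 to 385), in 133 of 771 Met-1 macrophage-like cells (68.1 CPM) and in 43 of 183 PyMT macrophage-like cells (105 CPM). T-like cells had it in 3 of 317 and 0 of 44 cells. At 4.26 CPM, mural-like cells were 86.0-fold lower (36.8 to 265) than fibroblast-like cells of the same library.

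Mmp12, the elastase of macrophages, was at 377 CPM (362 to 393) in macrophage-like cells of Met-1 and 171 CPM (150.3 to 193) in those of PyMT. They held 92.3% (91.2 to 93.3) and 77.9% (73.0 to 82.2) of its UMIs. It was present in 211 of 771 and 53 of 183 of these cells, against 3 of 317 and 1 of 44 T-like cells. Fibroblast-like cells were at 3.15 CPM in Met-1 and had 0 UMIs in PyMT. B-like cells of the Met-1 library were at 26.2 CPM, and they also carried the macrophage gene C1qa at 1078 CPM, 19.9% of its macrophage level, so the part of macrophage RNA in their Mmp12 was not tested.

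Mmp9, the gelatinase stored in neutrophil granules, was at 413 CPM (291 to 569) in neutrophil-like cells of Met-1 and 305 CPM (250.5 to 368) in those of PyMT. This came from 37 UMIs in 16 of 36 cells and 109 UMIs in 65 of 184 cells, at median depths of 2586 and 1630 UMIs. These cells held 77.1% (62.7 to 88.0) and 93.2% (87.0 to 97.0) of all Mmp9 UMIs. In T-like cells Mmp9 was present in 0 of 317 Met-1 cells, where 3 UMIs would be 1.09 CPM, and in 1 of 44 PyMT cells.

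The 3 inhibitors differed in how widely they were present. Timp1, a secreted inhibitor with little effect on Mmp14, was close to a stromal gene: 735 CPM in fibroblast-like cells of Met-1 (215 of 255 cells, 83.9% of the UMIs, 82.7 to 85.1) and 568 CPM in those of PyMT (10 of 11 cells, 77.8%, 67.8 to 85.9). Mural-like cells were at 241 CPM, 3.05-fold lower (2.70 to 3.46) than fibroblast-like cells. Macrophage-like cells had 5.56 CPM in Met-1 and 1 UMI in PyMT, and neutrophil-like cells 0 UMIs in both. The Met-1 macrophage level was 0.76% of that in fibroblast-like cells, beside 0.22% for Col1a1.

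Timp2, which takes part in the activation of Mmp2, was the only one of the 10 with more than a few positive T-like cells. It was at 1063 and 1145 CPM in fibroblast-like cells, 438 and 380.2 CPM in macrophage-like cells (612 of 771 and 135 of 183 cells), and 125 and 204 CPM in luminal-like cells, in Met-1 and PyMT. T-like cells were at 57.7 and 61.6 CPM (110 of 317 and 9 of 44 cells), 5.43% of the fibroblast level in Met-1, where Col1a1 was at 0.19%. Neutrophil-like cells were at 89.2 and 50.4 CPM, and the interval of each of these overlapped that of the T-like cells of its library.

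Timp3, which binds to the matrix and also inhibits ADAMTS proteases, was shared by fibroblast-like and mural-like cells of the Met-1 library and by luminal-like cells of the PyMT library. Met-1 mural-like cells were at 619 CPM (575 to 666) and fibroblast-like cells at 688 CPM (663 to 714), with a UMI in 78 of 98 and 192 of 255. PyMT fibroblast-like cells were at 422 CPM (315 to 554, 7 of 11 cells). Luminal-like cells were at 21.0 CPM in Met-1 (6 of 37 cells) and 71.6 CPM in PyMT (40 of 86 cells), where they held 56.3% (49.0 to 63.5) of the Timp3 UMIs. Macrophage-like cells had 2.86 and 5.97 CPM.

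A comparison of mural-like with fibroblast-like cells in the Met-1 library could be made for 8 of the 10 genes, and 5 were at least 2-fold lower in mural-like cells (Mmp2, Mmp3, Mmp13, Timp1 and Timp2). Among all 9083 genes compared, 11.8% passed 2-fold, 5.03% higher and 6.8% lower in mural-like cells. The fold used for such counts is that of CPM + 10. A gene entered when its mean CPM of both sides, times the smaller total of UMIs, gave at least 10 expected UMIs. A gene could thus enter by its level on 1 side alone, as Mmp3 (1 mural UMI) and Mmp13 (5 mural UMIs) did here. The other 3 genes, Mmp11, Mmp14 and Timp3, were within 2-fold. Clustering of the whole transcriptome drew this line elsewhere, since it placed 143 of the 150 myofibroblastic cells with 97 of the 98 mural-like cells. The pericyte gene Rgs5 was at 5166 CPM in mural-like cells (97 of 98) and 2.83 CPM in myofibroblastic cells (7 of 150), and the fibroblast gene Pdgfra at 2.55 CPM (3 of 98) and 196 CPM (115 of 150). Other mural markers were shared: Cspg4 was at 363 CPM in mural-like cells (84 of 98) and 85.7 CPM in myofibroblastic cells (84 of 150), Ndufa4l2 at 1197 CPM (94 of 98) and 151 CPM (82 of 150), and Notch3 at 440.1 CPM (88 of 98) and 43.5 CPM (59 of 150). Mural-like cells carried a median of 5 of the 10 fibroblast markers, and fibroblast-like cells of Met-1 a median of 9.

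Within the fibroblast-like cells of the Met-1 library, proteases and inhibitors were divided between states. Mmp13 and Timp1 were higher in myofibroblastic than in progenitor-like cells, and Mmp3 and Timp2 were lower. Of 8 genes that could be compared, these 4 passed 2-fold, where 15.6% of all 7506 genes did (8.33% higher and 7.26% lower), and the median log2 ratio was 0.55 over the 8 and 0.14 over all genes. The median depth was 19272 UMIs in myofibroblastic and 13120 in progenitor-like cells.

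Of the 8 genes, Mmp13 was the most unequal between these states. It had 1402 UMIs in 44 of 150 myofibroblastic cells (496 CPM, 471 to 523) and 0 UMIs in the 12 Gdf10 and the 55 progenitor-like cells. The 38 cells between states held 108 Mmp13 UMIs (268 CPM, 220 to 324) in 2 cells. Set against 3 UMIs over the progenitor-like cells, the myofibroblastic level was 122-fold higher, and the exact interval of the ratio had a lower limit of 99.4. Mmp13 entered this comparison by its myofibroblastic level. In that state 1 cell held 460 of the 1402 UMIs, and the level without that cell was 336 CPM. Timp1 was at 952 CPM in myofibroblastic, 261 CPM in Gdf10 and 212 CPM in progenitor-like cells. The ratio of myofibroblastic to progenitor-like cells was 4.49 (3.82 to 5.31), and a UMI was present in 142 of 150 and 37 of 55 cells.

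Mmp3 had the opposite order, at 165 CPM (151 to 181) in myofibroblastic, 879.8 CPM (739 to 1039) in Gdf10 and 585 CPM (531 to 643) in progenitor-like cells. In the Gdf10 state 1 cell held 54 of the 138 UMIs, and the level without that cell was 556 CPM. In the progenitor-like state 1 cell held 103 of the 433 UMIs, and the level without that cell was 459 CPM. The ratio of myofibroblastic to progenitor-like cells was 0.283 (0.247 to 0.323), with a UMI in 27 of 150, 9 of 12 and 35 of 55 cells of these states. Timp2 was at 782 CPM in myofibroblastic, 1148 CPM in Gdf10 and 2127 CPM in progenitor-like cells, 2.72-fold lower (2.55 to 2.90) in myofibroblastic than in progenitor-like cells. Mmp2 went the same way without passing 2-fold, at 746 CPM in myofibroblastic, 682 CPM in Gdf10 and 1348 CPM in progenitor-like cells. Mmp14 (789.7 CPM in myofibroblastic, 453 CPM in Gdf10 and 488 CPM in progenitor-like cells) and Timp3 (794, 185 and 522 CPM in the same states) leaned the other way.

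The 12 Gdf10 cells differed from progenitor-like cells past 2-fold in 2 of 7 genes compared, beside 12.9% of 2328 genes (5.5% higher and 7.43% lower). Mmp11 was at 204 CPM in Gdf10 and 33.8 CPM in progenitor-like cells, a ratio of 6.04 (3.47 to 10.6), but 1 cell held 19 of its 32 Gdf10 UMIs and the level without that cell was 86.0 CPM. Timp3 was 2.82-fold lower (1.93 to 4.27) in Gdf10 than in progenitor-like cells.

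**Figure D2:**
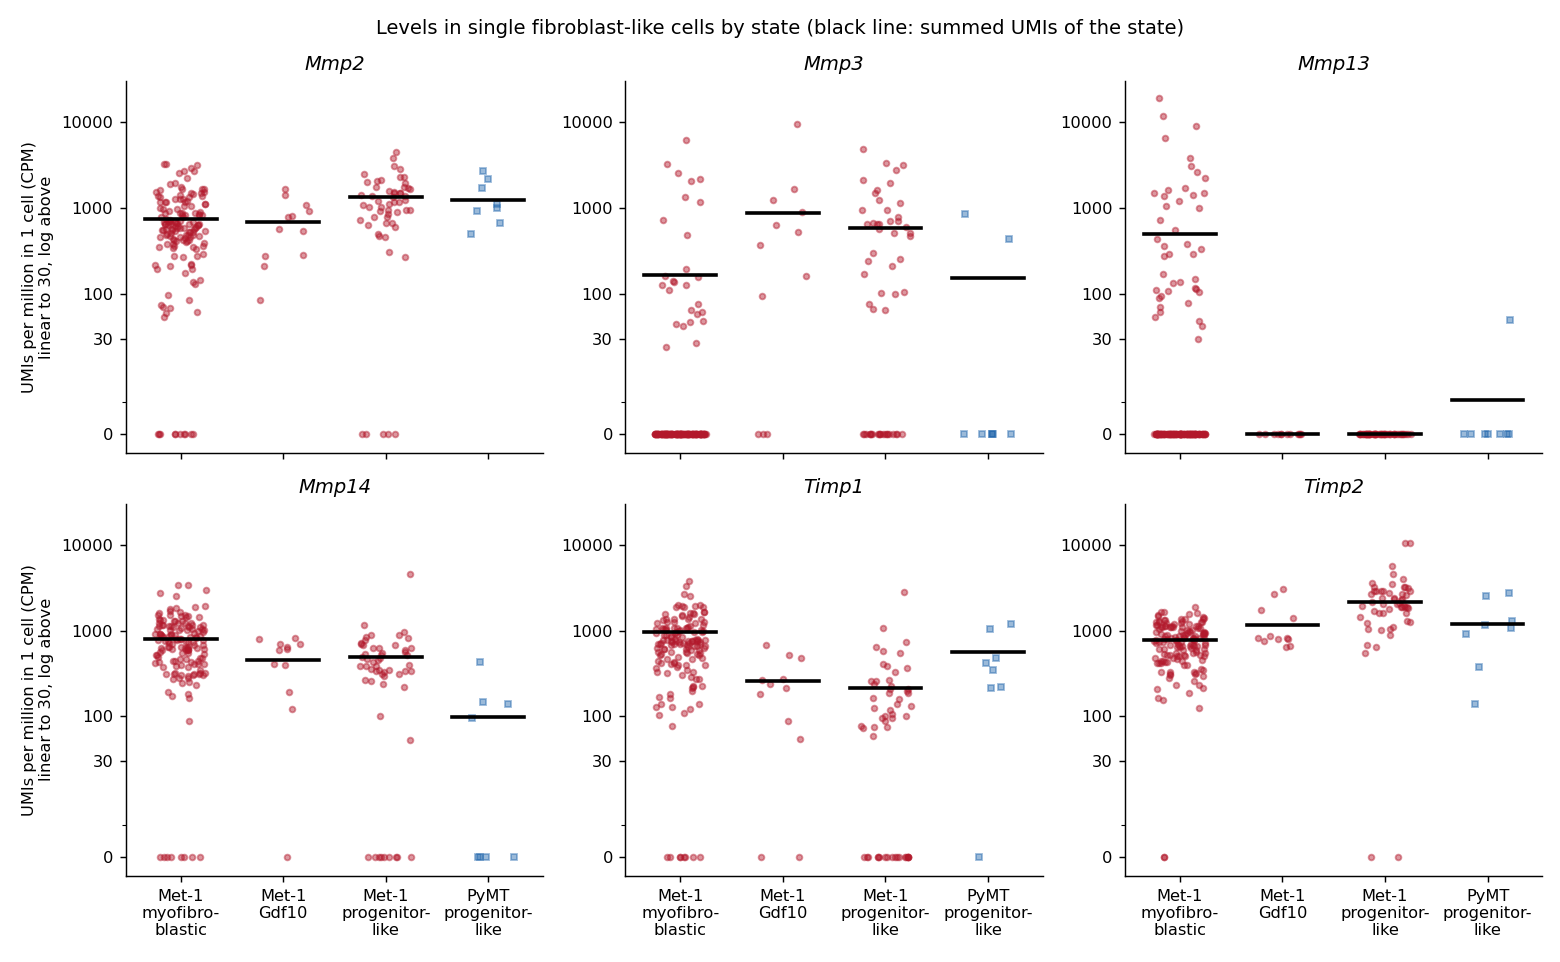
Level of 6 genes in single myofibroblastic, Gdf10 and progenitor-like cells of Met-1 (circles) and progenitor-like cells of PyMT (squares), in CPM of the cell (y axis, linear to 30 and log above), with a black line at the summed level of the state. Mmp13 is at 496 CPM in myofibroblastic cells and at 0 UMIs in the Gdf10 and progenitor-like cells of Met-1, while Mmp3 and Timp2 are lower in myofibroblastic cells than in these. Cells between states are not shown.

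Mmp13 and Mmp3, the proteases past 2-fold between myofibroblastic and progenitor-like cells, were held by few cells in the Met-1 library. Of the 2075 Mmp13 UMIs of the Met-1 library, 1 myofibroblastic cell held 460 (22.2%), where Mmp13 made up 19221 CPM of that cell's RNA. The next were 226 and 135 UMIs, both also in myofibroblastic cells. In all, 10 cells held 59.5% and 6 cells 50% of the UMIs, among 219 cells with any. The 3 highest cells each had at least 7 of the 10 fibroblast markers and at most 2 of the 14 macrophage markers. Without the highest cell, fibroblast-like cells were at 256 CPM in place of 366 CPM.

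For Mmp3 in the Met-1 library, 9 of 101 positive cells held 50% of its 1389 UMIs. The highest cell had 119 (8.57%), beside 22.2% for Mmp13, and Mmp3 had fewer positive cells than Mmp13. The number of positive cells differs between genes, so these counts of cells do not measure concentration alone. In myofibroblastic cells, 3 of 27 positive cells held 50% of the Mmp3 UMIs, and in progenitor-like cells 5 of 35. For Mmp12, 27 of 257 positive cells in Met-1 and 10 of 66 in PyMT held 50%, with a highest cell of 118 and 34 UMIs. Timp1 needed 41 of 373 and 4 of 25 cells, and Timp3 35 of 328 and 11 of 56.

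Mmp2, Mmp14 and Timp2 were spread over many cells. In the Met-1 library 50% of the UMIs lay in 75 of 647 cells for Mmp2, 123 of 916 for Mmp14 and 154 of 1300 for Timp2, and no cell held more than 1.67% of any of them. In the PyMT library these were 10 of 87, 32 of 126 and 51 of 264 cells. For Mmp9 this was 6 of 25 cells in the Met-1 library, where 10 cells held 68.8% of 48 UMIs, and 23 of 73 cells in the PyMT library, where no cell had more than 4 UMIs. Its positive cells had a median of 1 UMI in both libraries. Neutrophil-like cells numbered 36 in Met-1 (16 positive) and 184 in PyMT (65 positive). The parts of the low count and of the size of this class in the number of cells were not tested.

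**Figure D3:**
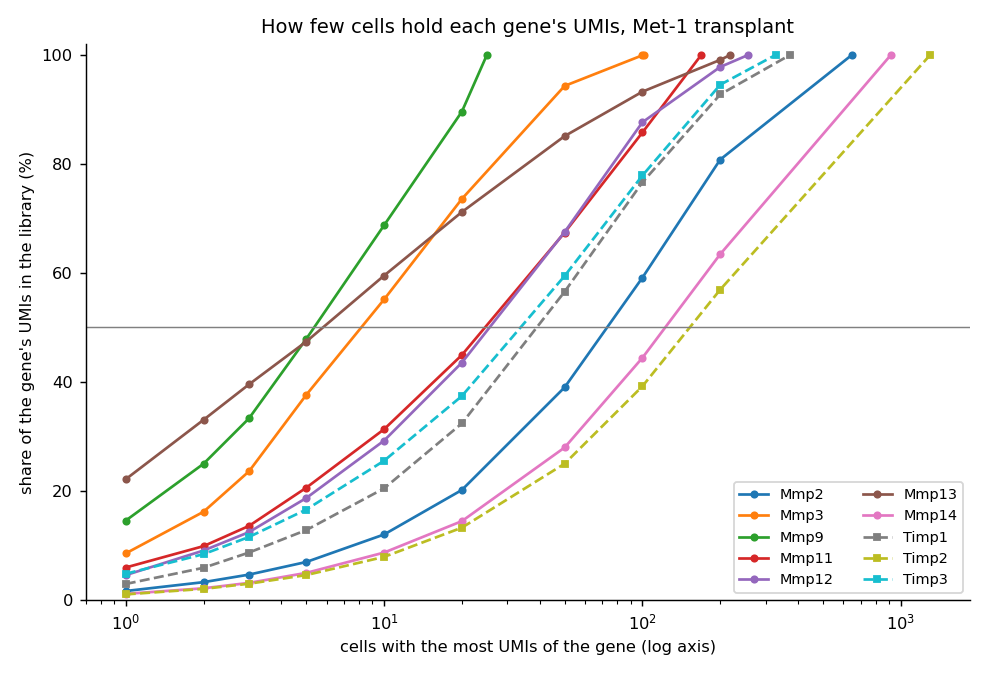
Share of a gene's UMIs (y axis, percent) held by its highest cells, ordered from most to fewest UMIs (x axis, number of cells, log scale), for each of the 10 genes in the Met-1 library, with solid lines for proteases, dashed lines for inhibitors and a grey line at 50%. The Mmp13 curve starts at 22.2% with 1 cell and reaches 59.5% with 10 cells, and those of Mmp2, Mmp14 and Timp2 rise slowest.

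Most fibroblast-like, mural-like and macrophage-like cells carried both an enzyme and an inhibitor. Over all kept cells, the median number of these proteases present in a cell was 1 in Met-1 and 0 in PyMT. At least 1 protease and 1 inhibitor were present together in 238 of 255 fibroblast-like cells of Met-1 and 11 of 11 of PyMT, in 95 of 98 mural-like cells, and in 522 of 771 macrophage-like cells of Met-1 and 107 of 183 of PyMT. Of the PyMT neutrophil-like cells, 67 of 184 had a protease, 16 an inhibitor and 7 both, at a median of 1630 UMIs. All 46 Mmp13-positive fibroblast-like cells of Met-1 also had Timp1 and Timp2, 45 had Mmp14 and 44 had Mmp2. All 46 had an EGFP UMI, and so did 227 of the 231 Mmp2-positive and 82 of the 87 Mmp3-positive fibroblast-like cells of Met-1.

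Mmp13 was present in 16 of the 27 Mmp3-positive myofibroblastic cells and in 44 of all 150. In macrophage-like cells, Mmp12 was present in 68 of the 133 Mmp13-positive cells and 211 of all 771 in Met-1, and in 18 of the 43 and 53 of all 183 in PyMT. Cells with more UMIs show more genes of any kind, and these overlaps were not matched for depth.

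Between the tumours, fibroblast-like cells could be compared for 7 of the 10 genes, and Mmp13 and Mmp14 were at least 2-fold higher in Met-1, with 0 lower. Among all 1957 genes compared, 22.4% passed 2-fold, 10.9% higher and 11.5% lower in Met-1. The median log2 ratio was 0.69 over the 7 and -0.05 over all genes. Mmp14 was at 714 CPM in Met-1 against 146 CPM in PyMT (18 UMIs), a ratio of 4.89 (3.09 to 8.25). Mmp13 was at 366 CPM in Met-1 and had 1 UMI in PyMT, a ratio of 45.1 (8.08 to 1783). It entered this comparison by its Met-1 level. That UMI lay in 1 of the 8 progenitor-like PyMT cells, and the 55 progenitor-like Met-1 cells had 0 Mmp13 UMIs. The part of the mix of states in this ratio was not tested.

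The other 5 genes compared were within 2-fold, at 0.739 (0.626 to 0.879) for Mmp2, 1.70 (1.14 to 2.67) for Mmp3, 1.29 (1.02 to 1.66) for Timp1, 0.929 (0.785 to 1.11) for Timp2 and 1.63 (1.24 to 2.19) for Timp3, Met-1 over PyMT. The states stand beside these values: 150 of the 255 Met-1 cells and 0 of the 11 PyMT cells were set as myofibroblastic. With classes from whole-transcriptome clusters, which left 83 Met-1 and 10 PyMT cells in the fibroblast-like cluster, the log2 ratio of Mmp13 turned to -0.93, Mmp3 (1.54) and Mmp14 (1.76) were past 2-fold higher in Met-1 and Timp1 (-1.18) past 2-fold lower. Without the highest cell of each gene, Mmp3 also passed 2-fold over all fibroblast-like cells (log2 ratio 1.09), and Timp2 did in progenitor-like cells (1.15).

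Progenitor-like cells alone, 55 in Met-1 and 8 in PyMT, gave 3 of 6 genes past 2-fold, beside 20.1% of 1390 genes (9.42% higher and 10.7% lower in Met-1). Mmp14 was at 488 CPM in Met-1 against 97.8 CPM in PyMT (9 UMIs), a ratio of 4.99 (2.60 to 11.0). Over all fibroblast-like cells, which include these 8 PyMT cells, its ratio was 4.89. Mmp3 was at 585 CPM in Met-1 against 152 CPM in PyMT (14 UMIs in 2 cells), a ratio of 3.85 (2.27 to 7.10). Timp1 was 2.66-fold lower (1.91 to 3.67) in Met-1, at 212 CPM in Met-1 against 565 CPM in PyMT, where 1 of the 8 cells held 24 of 52 UMIs and the level without it was 388 CPM. Each cell of the 11 PyMT fibroblast-like cells had 2 to 25 Mmp2 UMIs, 2 to 37 Timp2 UMIs, 0 to 24 Timp1 UMIs and 0 to 4 Mmp14 UMIs.

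Macrophage-like cells had more Mmp12 in Met-1 than in PyMT, the only 1 of 5 genes compared to pass 2-fold, beside 7.23% of 8322 genes (5.73% higher and 1.5% lower). The ratio was 2.21 (1.94 to 2.53), at 377 CPM in Met-1 against 171 CPM in PyMT. With every cell thinned to 1000 UMIs, Mmp12 was present in 111 of 748 Met-1 and 17 of 182 PyMT cells. The ratio was under 2-fold with classes from clusters (log2 ratio 0.99) and with the mean of CPM per cell (0.74).

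Mmp14 was at 179 CPM in Met-1 against 104 CPM in PyMT macrophage-like cells, a ratio of 1.73 (1.46 to 2.06). After thinning it was present in 138 of 748 and 10 of 182 cells, and its log2 ratio was 1.71 in thinned counts and 1.15 as the mean of CPM per cell, both past 2-fold. Mmp2 (1.44, 1.15 to 1.83) and Timp2 (1.15, 1.05 to 1.26) were within 2-fold. Mmp13 was 1.54-fold lower (1.27 to 1.85) in Met-1, at 68.1 CPM in Met-1 against 105 CPM in PyMT. In PyMT 1 cell held 38 of the 158 UMIs, without which that level was 80.5 CPM. The direction turned in thinned counts (log2 ratio 0.37, with a UMI in 43 of 748 Met-1 and 10 of 182 PyMT cells), so no direction is read.

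In neutrophil-like cells the only gene that could be compared was Mmp9, and it was within 2-fold, at a ratio of 1.35 (0.905 to 1.98), Met-1 over PyMT, beside 26.3% of 1249 genes past 2-fold (12% higher and 14.3% lower). After thinning, Mmp9 was present in 13 of 31 Met-1 and 41 of 172 PyMT cells. In luminal-like cells 1 of 3 genes compared passed 2-fold, beside 11.8% of 6910 genes (6.7% higher and 5.08% lower). This was Timp3, 3.40-fold lower (1.94 to 6.43) in Met-1, with 14 UMIs in Met-1, 7 of them in 1 cell, and 107 in PyMT. With classes from clusters its log2 ratio was -0.03. The luminal-like cluster kept 36 of the 37 Met-1 and all 86 PyMT cells set by markers. From Met-1 it also took in 1 cell with markers of more than 1 class and 3 cells set to no class. From PyMT it took in 12 and 3 such cells and 1 macrophage-like cell. The part of these cells in the change of the ratio was not tested. The median depth of the cells set by markers was 6398 UMIs in Met-1 and 17222 in PyMT. The neutrophil gene S100a8 was at 932 CPM in Met-1 against 93.0 CPM in PyMT in them, and its part in the result was not tested. Timp2 (0.611, 0.474 to 0.782) and Mmp14 (1.62, 1.01 to 2.58) were within 2-fold in luminal-like cells. In T-like cells only Timp2 could be compared, and it was within 2-fold at a ratio of 0.937 (0.542 to 1.75), beside 10.8% of 2776 genes past 2-fold (6.23% higher and 4.54% lower).

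**Figure D4:**
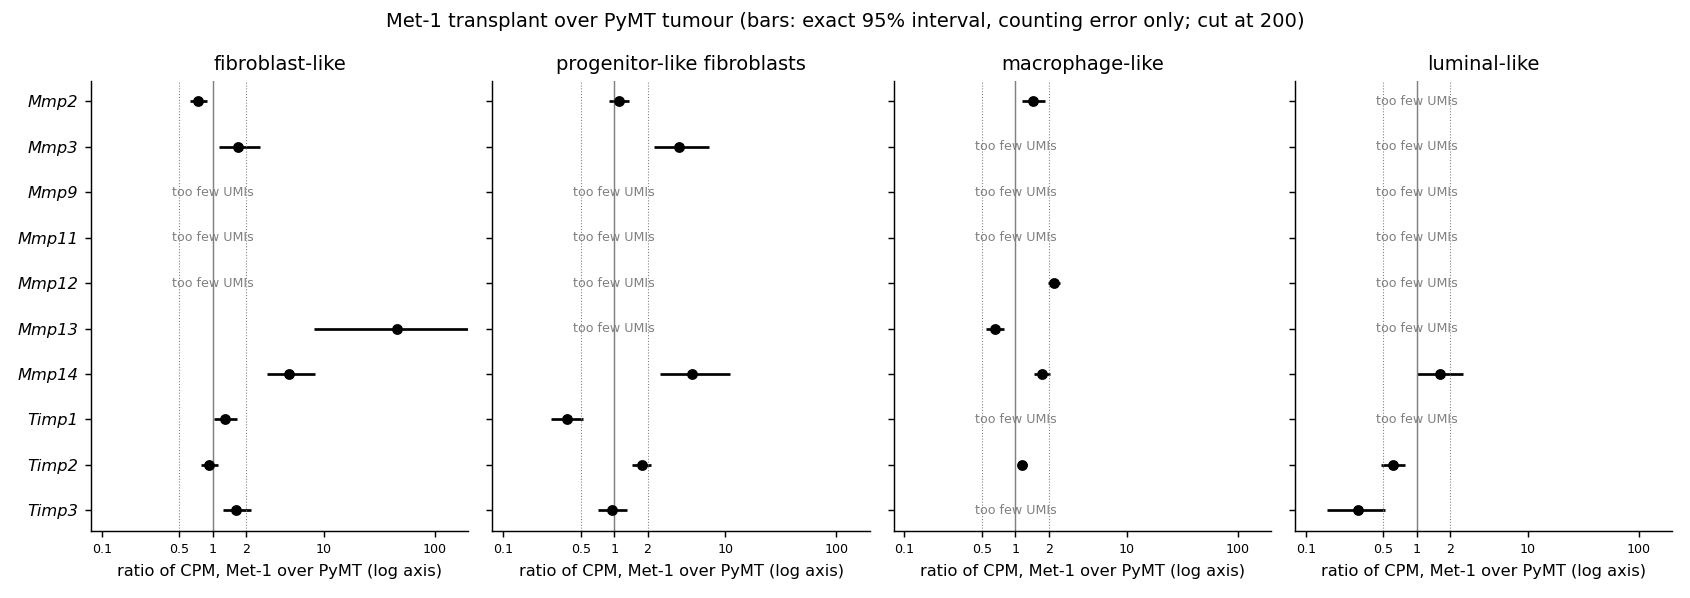
Ratio of Met-1 to PyMT level (log axis, 95% counting intervals) of the genes that could be compared in fibroblast-like cells, their progenitor-like state, macrophage-like and luminal-like cells, with a solid line at 1 and dotted lines at 2-fold. Mmp13 and Mmp14 in fibroblast-like cells, Mmp3 and Mmp14 in progenitor-like cells and Mmp12 in macrophage-like cells lie above 2-fold, and Timp1 in progenitor-like and Timp3 in luminal-like cells below it.

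Within Met-1 macrophage-like cells, 20 monocyte cells (Ccr2, Ly6c2, Plac8) and 745 C1q cells (C1qa, Trem2, Mrc1) could be compared for Mmp12, Mmp14 and Timp2, and these 3 were more than 2-fold lower in monocytes, where 25.8% of 2606 genes passed 2-fold (11.1% higher and 14.7% lower). Mmp12 had 0 UMIs in monocytes and 394 CPM in C1q cells. Set against 3 UMIs it was 24.1-fold lower in monocytes, and the exact interval of this fold had a lower limit of 19.6. Mmp14 had 2 UMIs in monocytes and 186 CPM in C1q cells, a ratio of 0.0585 (0.00707 to 0.212). Timp2 was 14.0-fold lower (6.41 to 38.1), at 32.7 CPM in monocytes and 456 CPM in C1q cells. With 20 monocytes, a gene entered this comparison mainly by its level in C1q cells. Timp1, which had too few UMIs for that, was at 32.7 CPM in monocytes (6 UMIs, 5 of them in 1 cell) and 4.81 CPM in C1q cells (29 UMIs), a ratio of 6.79 (2.31 to 16.6). The median depth was 10276 UMIs in monocytes and 7312 in C1q cells.

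Between cycling and other macrophage-like cells of Met-1, 4 of 5 genes compared were within 2-fold. Mmp12 was at 379 CPM in 53 cycling and 377 CPM in 718 other cells. The gene past 2-fold, beside 5.69% of 6866 genes (4.91% higher and 0.786% lower), was Mmp13, 2.62-fold lower (1.69 to 4.27) in cycling cells, at 28.1 CPM in cycling and 73.5 CPM in other cells.

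A list of 47 other genes of this system (further MMP, ADAM and ADAMTS proteases, the inhibitors Timp4 and Reck, the plasminogen activation genes and proteins that bind or cut metalloproteinases) gives their surroundings. It had 46 rows, of which 36 had at least 20 UMIs and 3 had 0. In fibroblast-like cells 2 of 14 genes compared were higher in Met-1 and 3 lower, beside 10.9% and 11.5% of all genes. Higher were Thbs1, a matricellular protein that binds metalloproteinases, at 699 CPM in Met-1 against 154 CPM in PyMT, and the integrin chain Itgb1, at 718 and 300.4 CPM. Lower were Cd44, a hyaluronan receptor (67.9 CPM in Met-1 against 244 CPM in PyMT), Adam15 and Adamts15, all 3 named after their values were seen. In progenitor-like cells alone 1 of 14 was higher and 2 lower, beside 9.42% and 10.7% of all genes, which is near that background, and Thbs1 was lower there, at 56.7 CPM in Met-1 against 163 CPM in PyMT (15 UMIs).

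In macrophage-like cells 2 of 18 were higher in Met-1 and 1 lower, beside 5.73% and 1.5% of all genes. Plau, the urokinase plasminogen activator, named after its value was seen, was at 176 CPM in Met-1 against 63.0 CPM in PyMT, and Lcn2, a granule protein that binds Mmp9, was at 5.24 and 64.4 CPM. The neutrophil gene S100a8 moved with it, with 11.6 CPM in the macrophage-like cells of Met-1 against 66.4 CPM in those of PyMT, and its part in the Lcn2 result was not tested. In neutrophil-like cells 0 of 8 were higher and 3 lower, beside 12% and 14.3% of all genes: Mmp8, the neutrophil collagenase (44.6 CPM from 4 UMIs in Met-1, 277 CPM from 99 UMIs in PyMT), Bsg, an inducer of MMP expression also called CD147 (156 and 451 CPM), and Lcn2 (513 and 1312 CPM). Plaur, the urokinase receptor, was at 707 and 560.0 CPM in macrophage-like and 937 and 862 CPM in neutrophil-like cells of Met-1 and PyMT, and the tetraspanin Cd63, which binds Timp1, at 1737 and 2259 CPM in macrophage-like and 1688 and 1380 CPM in fibroblast-like cells. In luminal-like cells 1 of 15 was higher (Itgb1, 275 CPM in Met-1 against 130.5 CPM in PyMT) and 2 were lower (Plaur, 6.01 and 25.4 CPM, and Cd44, 55.6 and 128 CPM), beside 6.7% and 5.08% of all genes. Bsg was within 2-fold there, at 889.6 CPM in Met-1 against 999.5 CPM in PyMT.

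Between myofibroblastic and progenitor-like cells, 9 of 31 listed genes were higher and 6 lower, beside 8.33% and 7.26% of all genes. Thbs1 was at 981 CPM in myofibroblastic and 56.7 CPM in progenitor-like cells, a ratio of 17.3 (12.7 to 24.0). The stromelysin Mmp10, named after its value was seen, had 90 UMIs in 12 of 150 myofibroblastic cells and 0 in progenitor-like cells. Reck, a membrane-bound inhibitor of metalloproteinases, was 3.31-fold lower (2.18 to 5.01), and Adamts5, an aggrecanase also named after its value was seen, was 3.99-fold lower (3.58 to 4.44), at 232 CPM in myofibroblastic and 923 CPM in progenitor-like cells. Other genes of the list hardly entered: Timp4 had 1 and 3 UMIs and Mmp25 had 6 and 1 in all kept cells of Met-1 and PyMT. Mmp23 was at 167 and 171 CPM and Mmp19 at 51.2 and 106 CPM in fibroblast-like cells of Met-1 and PyMT.

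The genes whose levels were most like those of 9 of the 10 were found over 13 class and library pairs, by Pearson correlation of log2(CPM + 10) among 10460 genes. The pairs share 2 libraries, and a gene with a single high class takes a high value with any other gene of that class, so these are descriptions only. Mmp9 was most like Cxcr2 (0.999), which with Hdc is itself a neutrophil marker used to set the class. Mmp3 was most like Abi3bp (0.999), Mmp11 like Ltbp4 (0.996) and Mmp14 like Apbb2 (0.979). Mmp12 was most like C3ar1 (0.984), and Mmp13, with its 2 sources, like the chemokine gene Ccl8 (0.969). Timp1 was most like Srgap1 (0.996), Timp3 like Ctgf (0.997) and Timp2 like Lifr (0.935), with Mmp14 the third for Timp2 (0.932).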

How the data were processed

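The deposited matrices hold raw UMI counts. The submitters' processing notes name Cell Ranger 3.1.0 and mm10. The annotation release, and whether barcodes had been filtered for cells, are not given in the sources used here. A barcode needed 500 UMIs, 200 genes and a mitochondrial share of no more than 10%. Scrublet calls (23 Met-1 and 1 PyMT) were removed, with scanpy 1.11.5 in Python 3.11.15. A class needed at least 3 of its markers and a score 1.25 times that of the next list, and a fibroblast or macrophage state at least 2. Cells with at least 3 of 8 cycling markers were called cycling. CPM has exact Poisson, ratios exact conditional binomial and shares exact Clopper-Pearson 95% intervals. A gene entered a comparison when its mean CPM of both sides, times the smaller total of UMIs, gave at least 10 expected UMIs. Counts past 2-fold used CPM + 10. A count of 0 was set to 3 where a fold is set against 3 UMIs. Thinning drew 1000 UMIs per cell and left out shallower cells. The calculations were tested on simulated counts. The 10 genes, the marker lists and the list of 47 were chosen with earlier results of these data known. From that list the text names Mmp8, Mmp19, Mmp23, Mmp25, Timp4, Reck, Bsg and the 6 genes with the most UMIs, unless it says otherwise. Of the 3 most alike genes per member, the first is given, and that for Mmp2 is not reported here. Reads of Timp1, Timp2, Timp3 and Mmp2 could be shared with the overlapping genes Syn1 (7 and 2 UMIs in Met-1 and PyMT), Cep295nl (29 and 5), Syn3 (114 and 3) and Gm45472 (1 and 0), since no source used here gives the counting strand.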

Additional observations from a re-analysis of the deposited data

Results flagged for a closer look

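For 4 genes the ratio of Met-1 to PyMT went in opposite directions in 2 cell classes, with counting intervals that lay on opposite sides of 1. None of these differences was tested, since each group has 1 library. Mmp13 was 45.1-fold (8.08 to 1783) in fibroblast-like cells and 0.650-fold (0.540 to 0.785) in macrophage-like cells, a difference of 4.93 in log2 ratio. That difference rests on 1 PyMT fibroblast UMI and on a macrophage ratio that changed direction in thinned counts. In progenitor-like cells alone, Mmp13 had 0 UMIs in Met-1 and 1 in PyMT. Timp3 was 1.63-fold (1.24 to 2.19) in fibroblast-like and 0.294-fold (0.155 to 0.515) in luminal-like cells, a difference of 2.09, and the luminal log2 ratio was -0.03 with classes from clusters. Mmp2 was 1.44-fold (1.15 to 1.83) in macrophage-like and 0.739-fold (0.626 to 0.879) in fibroblast-like cells, a difference of 0.89. Timp2 was 1.15-fold (1.05 to 1.26) in macrophage-like and 0.611-fold (0.474 to 0.782) in luminal-like cells, a difference of 0.87.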

How the results depend on the processing

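Of the counts of genes past 2-fold and of genes led by fibroblast-like or mural-like cells, 64 values kept within 1.5 times under the alternatives and 9 did not. The count in macrophage-like cells was 0 with classes from clusters and 2 (Mmp12 and Mmp14) in thinned counts. In luminal-like cells it was 2 with a mitochondrial limit of 20%, 2 with no filter on low counts and 0 in thinned counts, where 0 genes entered. Thinning left 2 genes to compare in fibroblast-like cells and 2 in progenitor-like cells, and the count was 0 in both. With no filter it was 2 in neutrophil-like and 5 in progenitor-like cells. A called direction reversed once, for Mmp13 in fibroblast-like cells with classes from clusters (log2 ratio -0.93), by the construction of that setting, since those clusters moved 143 of the 150 myofibroblastic cells to the mural-like name. Single levels and ratios moved in 226 of the other values and kept in 1215, unevenly over the settings. The settings of at least 50 UMIs on 1 side and of no filter on low counts changed only which genes entered. Their 30 values each are among those kept and could not move. Thinning moved 98 values and kept 72, and classes from clusters moved 38 and kept 123. The comparison of myofibroblastic with progenitor-like cells could not be made with clusters, which named no myofibroblastic cluster. No paired analysis was possible because each group has 1 library and the labels give no replicate numbers. Depth limits Mmp9, Mmp11 and all values of the 11 PyMT fibroblast-like cells.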

Other observations

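Barcodes over the mitochondrial limit, which entered no comparison, also carried these genes. The 316 such Met-1 barcodes held 129 UMIs of Timp3 (210 CPM), 116 of Mmp14 (189 CPM), 152 of Timp2 (248 CPM) and 0 of Mmp9, and the 27 such PyMT barcodes held 15 UMIs of Timp2 (302 CPM), 7 of Mmp2 (141 CPM) and 0 of Timp1 and Timp3.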
